A study of Rattus norvegicus with 21 samples.

Results

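Alpha-fetoprotein (Afp) and 7 further genes of fetal liver and fetal growth (Gpc3, Dlk1, Igf2, Igf2bp3, Peg3, Plagl1 and Mest) were followed in rat liver RNA-seq. They were taken by gene symbol, 8 of the 32623 genes listed, and each symbol had a single row in both expression tables. The study had 21 liver libraries, 3 in each of 7 groups. In Wistar rats these were controls and early weaned rats at day 23 of age and controls and early weaned rats at day 63. In Sprague Dawley rats, all at day 211, they were controls, early weaned rats, and early weaned rats that drank water with 1.5% leucine. No group carried a genetic alteration, and the labels used here give neither the sex of the animals nor the day of weaning. The libraries were bulk liver, so fewer cells of a type and less RNA per cell cannot be told apart. Albumin (Alb), the defining hepatocyte product, lay between 33680 and 85370 FPKM (fragments per kilobase of transcript, scaled to the mapped fragments of the library) in all 21 libraries. Of 6 listed adipocyte genes, Adipoq, Plin1 and Lep did not reach the level needed for a test in Wistar liver. The other 3, Fabp4, Cidec and Cfd, were tested there, and Cidec had group means between 6.29 and 31.9 FPKM.

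Fetal hepatocytes secrete Afp, a carrier protein of the albumin family, and silence it after birth, when albumin takes over. The transcription factor Zhx2 is a known repressor of Afp and Gpc3 in adult mouse liver. Igf2 is the fetal insulin-like growth factor, which rodent liver largely shuts off after birth, and Igf2bp3 is an oncofetal protein that binds Igf2 and other mRNAs. Gpc3 is a membrane glypican, encoded on the X chromosome, that restrains fetal growth. Dlk1 is a transmembrane protein of the Notch ligand family made by fetal hepatoblasts, Peg3 and Plagl1 are zinc finger transcription factors, and Mest is a membrane protein of the hydrolase fold. 5 of the genes (Dlk1, Igf2, Peg3, Plagl1 and Mest) are imprinted in rodents, that is, read from the copy of a single parent. Afp, Gpc3 and Igf2bp3 are not known as imprinted genes, so "imprinted fetal growth genes" describes the set only in part, and expression by parental allele was not measured.

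In the coordinates of the tables, for a rat build that they do not name, the genes are spread over 5 chromosomes, with Igf2, Peg3 and Plagl1 far apart on chromosome 1. Afp is ENSRNOG00000002889, chr14:19141755-19159923, minus strand. Gpc3 is ENSRNOG00000060179, chrX:139579268-139916883, minus strand. Igf2 is ENSRNOG00000020369, chr1:215828102-215846911, minus strand. Igf2bp3 is ENSRNOG00000009052, chr4:78746547-78879294, minus strand. Dlk1 is ENSRNOG00000019584, chr6:133552821-133583751, plus strand. Peg3 is ENSRNOG00000014791, chr1:70222964-70237443, plus strand. Plagl1 is ENSRNOG00000025587, chr1:7252349-7259035, plus strand. Mest is ENSRNOG00000048088, chr4:58053041-58063138, plus strand.

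The start regions of the genes are of unlike kinds, and those of Afp and Peg3, the members of highest mean FPKM over all libraries of each strain, are printed for that reason. RefSeq promoter windows on build GRCr8 were found for 8 of 8 symbols (9 windows, since Igf2 has more than 1). The 250 bases before the start are shown 5′ to 3′ on the gene's strand. Afp lies at chr14:17875646-17875895 on the minus strand and Peg3 at chr1:76130744-76130993 on the plus strand, with capitals marking CpG, a C followed by a G.
Afp: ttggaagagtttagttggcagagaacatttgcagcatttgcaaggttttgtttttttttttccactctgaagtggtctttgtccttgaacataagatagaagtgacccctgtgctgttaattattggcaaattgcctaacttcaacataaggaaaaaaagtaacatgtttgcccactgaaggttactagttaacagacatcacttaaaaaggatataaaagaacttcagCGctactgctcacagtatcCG
Peg3: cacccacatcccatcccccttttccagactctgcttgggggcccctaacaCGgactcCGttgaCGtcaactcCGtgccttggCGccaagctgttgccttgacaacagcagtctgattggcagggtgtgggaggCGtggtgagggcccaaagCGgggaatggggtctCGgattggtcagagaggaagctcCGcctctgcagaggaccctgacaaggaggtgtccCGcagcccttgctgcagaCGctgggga
CpG reads the same on both strands, and of 33469 rat promoter windows of the same length 92.2% held at least 1. The Afp window held 2 CpG, against a median of 5 over those promoters and with 18.2% of them holding fewer, whereas Peg3 had 11, Mest 15, the Igf2 windows 7 and 15, Igf2bp3 19, Gpc3 22, Plagl1 23 and Dlk1 41. The counts describe letters only, since methylation was not measured.

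In all libraries the 8 genes were at low to moderate levels. Over the 12 Wistar libraries the mean was 9.98 FPKM for Afp, 9.16 for Peg3, 4.95 for Igf2bp3, 1.60 for Mest, 0.84 for Gpc3, 0.13 for Igf2, 0.04 for Plagl1 and 0.0058 for Dlk1. The mean of Afp rested on replicate 3 of the day 23 controls, described next, and over the other 11 libraries it was 4.48 FPKM, below Peg3 (9.37) and Igf2bp3 (4.85). Over the 9 Sprague Dawley libraries Afp had a mean of 8.94 FPKM, Peg3 2.89, Igf2bp3 2.37, Mest 0.97, Gpc3 0.61 and Igf2 0.11. Afp, Peg3 and Igf2bp3 were therefore the members with the most RNA per length in both strains. The mean of Peg3 was higher in Wistar than in Sprague Dawley liver, but strain, age and table differ together there and cannot be told apart.

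**Figure D1:**
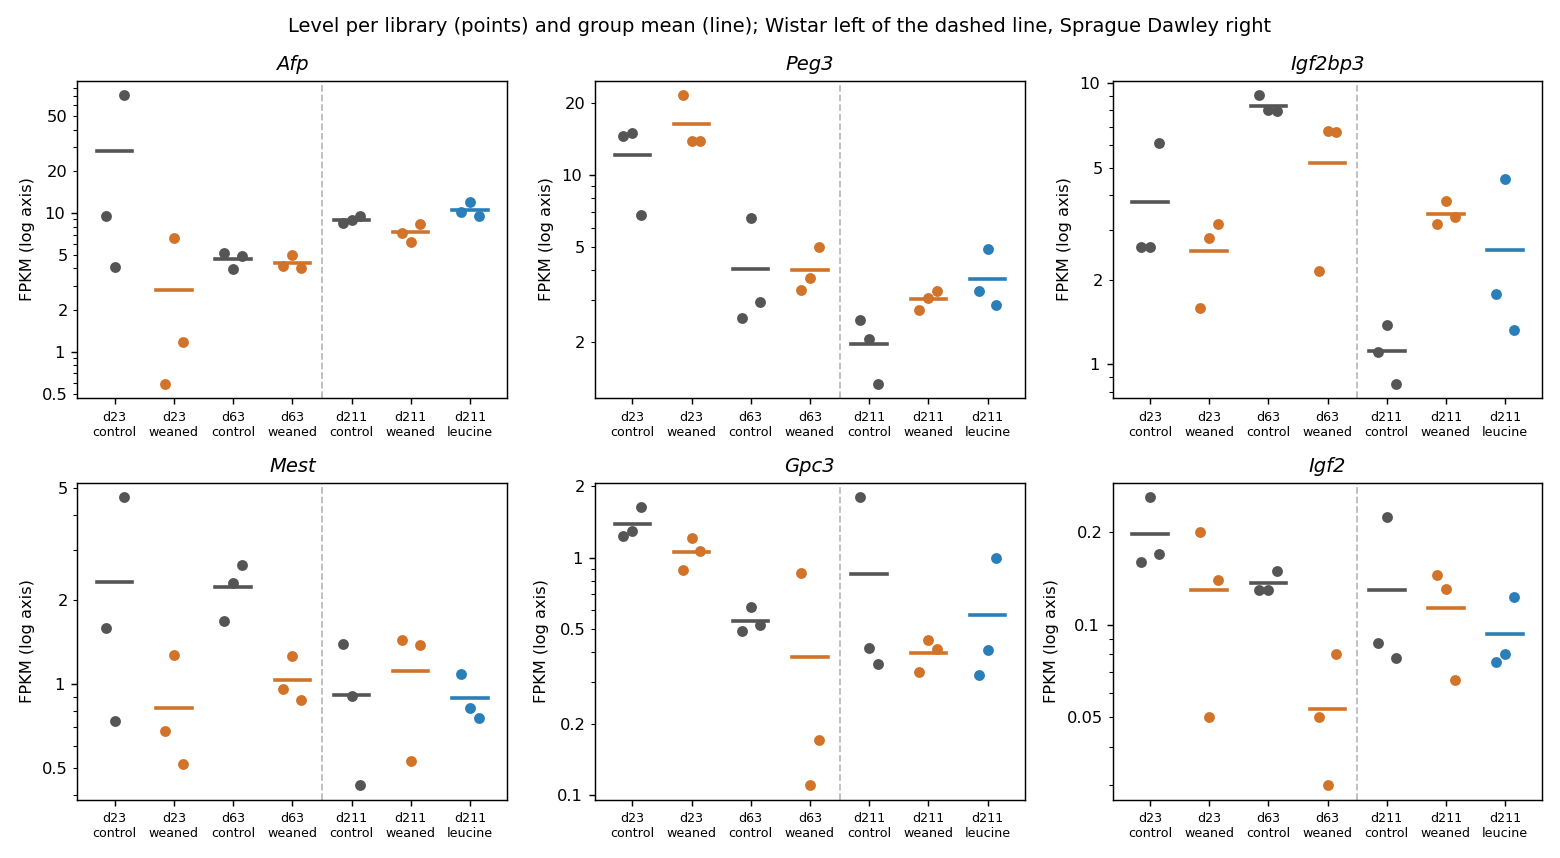
FPKM (log axis) of 6 members in each library (points) with the group mean (line), for the 7 groups in order of age. Afp in 1 day 23 control library reaches 70.5 FPKM, and Peg3 lies between 6.80 and 21.6 in every day 23 library and at 6.64 or lower in every other.

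The 21 libraries held between 52054644 and 75118153 counts each, with 10250 to 11082 genes at 1 FPKM or more. 1 library, replicate 3 of the day 23 controls, stood apart. Its mean correlation with the other libraries of its group was 0.900, against 0.938 to 0.979 for the other Wistar libraries. It was the highest of the 12 Wistar libraries for 11 of 12 cell cycle genes and for 4 of the 8 members, Afp, Gpc3, Mest and Dlk1. For Dlk1 it had 4 count units, as had replicate 3 of the early weaned rats at day 23. How many of all genes were highest in day 23 control replicate 3 was not counted, so the member count has no background. The cell cycle genes summed to 49.6 FPKM there and to between 11.9 and 26.4 FPKM in the other Wistar libraries. Mki67, a marker of dividing cells, was at 3.96 FPKM against 0.06 and 0.07 in the other day 23 controls. In the IGF system it also differed from its group. Igfbp1, a liver binding protein for IGFs, was at 473 FPKM against 7721 and 5747, and Igf2r, the receptor that clears IGF2, was at 7.14 FPKM against 1.15 and 1.34. Member values that moved with this library are given below with and without it, and the part of cell division in them was not tested.

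**Figure D2:**
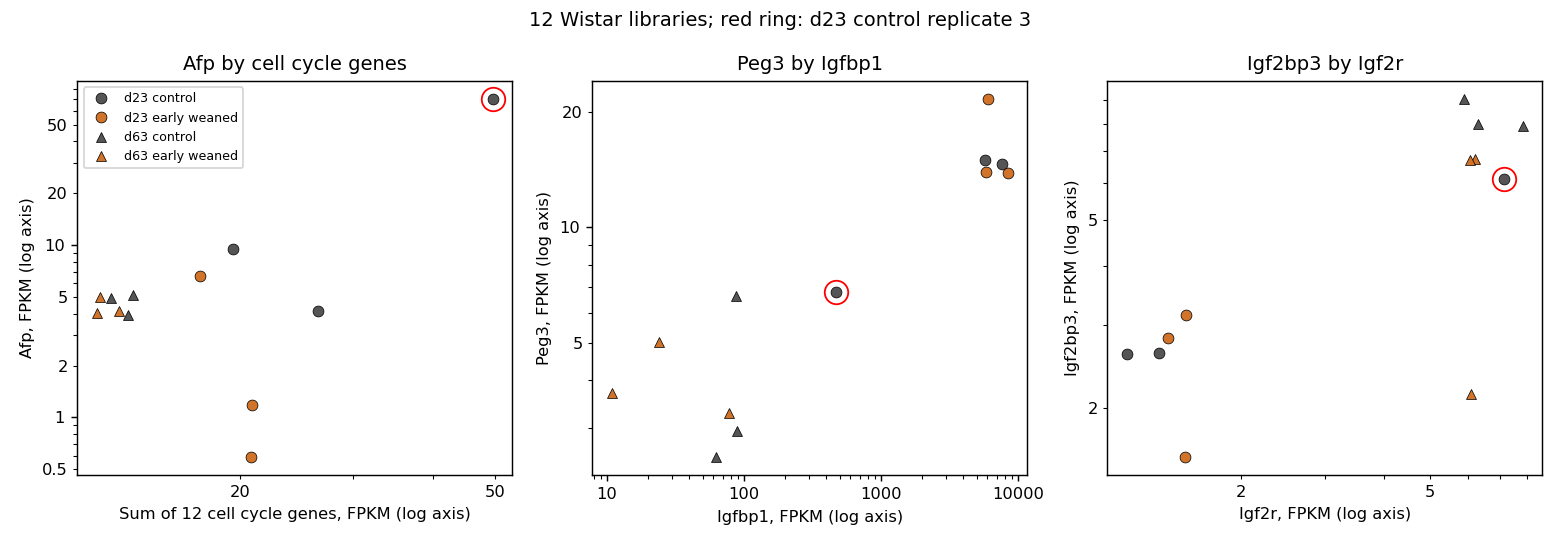
Each point is 1 of the 12 Wistar libraries, on log FPKM axes: Afp against the sum of 12 cell cycle genes, Peg3 against Igfbp1, and Igf2bp3 against Igf2r. The ringed library, day 23 control replicate 3, has the highest Afp (70.5 FPKM) and cell cycle sum (49.6 FPKM) and lies among the day 63 libraries for Igf2r (7.14 FPKM).

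Between day 23 and day 63, Peg3 was the member that changed. In day 23 controls Peg3 was at 14.6, 14.97 and 6.80 FPKM, and in day 63 controls at 2.53, 6.64 and 2.96 FPKM. In early weaned rats it was at 21.6, 13.9 and 13.9 FPKM at day 23 and at 3.30, 3.71 and 5.03 FPKM at day 63. All day 23 libraries lay above all day 63 libraries in both groups, although the lowest control at day 23 and the highest at day 63 nearly met. By edgeR's quasi-likelihood test with Benjamini-Hochberg adjustment over 15416 genes, the log2 change of Peg3 was -1.58 (SE 0.41, adjusted p = 0.0271) in controls and -1.91 (SE 0.41, adjusted p = 0.00954) in early weaned rats. The difference between these falls was -0.33 (SE 0.56, adjusted p = 1.0), so they could not be told apart.

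The call of Peg3 in controls was lost in 5 of 15 other settings. It ended when only the 2 groups compared were fitted (adjusted p = 0.113), and without replicate 1 or 2 of the day 23 controls (adjusted p = 0.0987 and 0.0898) or replicate 1 or 3 of the day 63 controls (0.0947 and 0.0937). Without replicate 3 of the day 23 controls, the library that stood apart, the fall was 1.86 (adjusted p = 0.00382). In early weaned rats Peg3 was called in 15 of 15 other settings, with adjusted p between 5.7e-05 and 0.0418.

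The count of called members was no higher than the background of all genes. In controls 17.6% of the 15416 genes were called between the ages and 1 of 7 tested members; in early weaned rats 27.0% were called and again 1 of 7. Dlk1 was not tested, having too few counts. The median log2 change of the 7 tested members was -1.34 in controls and -1.05 in early weaned rats, against -0.04 and -0.02 over all genes. At an unadjusted p under 0.05 there were 4 of 7 members in each group, against 34.7% and 41.5% of all genes. DESeq2 called 1 and 2 members, against 27.0% and 35.1% of all genes. The age comparisons in controls and in early weaned rats share no library. How many of all genes lacked overlap between the ages was not counted, so a lack of overlap has no background.

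Igf2bp3 had the opposite direction from Peg3 but did not pass the test. It was at 2.61, 2.62 and 6.10 FPKM in day 23 controls and at 9.03, 7.99 and 7.92 FPKM in day 63 controls. Early weaned rats had 1.58, 2.82 and 3.16 FPKM at day 23 and 2.15, 6.74 and 6.70 FPKM at day 63. The control groups did not overlap, whereas in early weaned rats replicate 1 at day 63 lay among the day 23 libraries. The log2 differences were 1.14 (SE 0.46, adjusted p = 0.106) in controls and 1.17 (SE 0.46, adjusted p = 0.0813) in early weaned rats. It was called in 1 of 15 other settings in controls and in 2 of 15 in early weaned rats. Without replicate 3 of the day 23 controls the difference in controls was 1.67 and passed (adjusted p = 0.0175), in a fit that called 37.9% of all genes. DESeq2 called the gene in early weaned rats (adjusted p = 0.0359), as it did 35.1% of all genes. Leaving out early weaned replicate 1 at day 63 gave 1.55 there (adjusted p = 0.0301), in a fit that called 15.1% of all genes. Each left-out library was the one of its group nearest the other age. Leaving it out widens the difference by construction, so neither refit is separate support for a rise of Igf2bp3. Its paralogs are read side by side per length: Igf2bp2 had means of 1.51 FPKM at day 23 and 0.083 at day 63 in controls, and Igf2bp1 had at most 0.08 FPKM in any Wistar library. Igf2bp3 thus had the highest mean of the 3 paralogs at both ages, and Igf2bp2 fell by 4.14 (adjusted p = 0.00846) in controls and fell by 6.19 (adjusted p = 0.00186) in early weaned rats.

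Gpc3 was lower at day 63, short of the threshold. Control livers had 1.23, 1.30 and 1.64 FPKM at day 23 and 0.49, 0.62 and 0.52 FPKM at day 63. Early weaned livers had 0.89, 1.21 and 1.07 FPKM at day 23 and 0.86, 0.11 and 0.17 FPKM at day 63. The ages did not overlap in either group, but 1 early weaned library at day 63 lay close to day 23. The log2 differences were -1.34 (SE 0.58, adjusted p = 0.125) and -1.35 (SE 0.58, adjusted p = 0.103), while limma on log2(FPKM + 1) called both (adjusted p = 0.0343 and 0.0251), as it did 21.5% and 35.6% of all genes. Without early weaned replicate 1 at day 63, the library close to day 23, the difference in early weaned rats was -2.69 and passed (adjusted p = 0.00372), in a fit that called 15.1% of all genes. Leaving out the library nearest the other age widens the difference by construction, so that refit is no separate support. Gpc3 was called in 2 of 15 other settings in controls and in 4 of 15 in early weaned rats.

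Afp showed no common direction with age. Day 23 controls had 9.49, 4.12 and 70.5 FPKM and day 63 controls 5.15, 3.93 and 4.93 FPKM. Early weaned rats had 0.59, 6.65 and 1.18 FPKM at day 23 and 4.16, 4.99 and 4.04 FPKM at day 63. The day 23 libraries thus spanned a range of 119.5 times (80 to 8570 count units over the 12 Wistar libraries), while the 6 day 63 libraries lay between 3.93 and 5.15 FPKM. The log2 difference between the ages was -2.58 (SE 1.03, adjusted p = 0.102) in controls and 0.74 (SE 0.98, adjusted p = 0.598) in early weaned rats, and the difference between these was 3.32 (SE 1.41, adjusted p = 1.0). Without replicate 3 of the day 23 controls the change in controls was -0.55 (adjusted p = 0.621) and the difference 1.29. The 2 groups at day 63 had SDs of 0.65 and 0.52 FPKM and overlapped.

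Igf2, Mest, Plagl1 and Dlk1 gave no call with age. Igf2 lay between 0.03 and 0.26 FPKM in the 12 Wistar libraries (10 to 88 count units), and its differences were -0.47 in controls and -1.05 in early weaned rats (adjusted p = 0.533 and 0.147). Mest had differences of -0.07 and 0.42 (adjusted p = 0.944 and 0.616), and the value in controls was 0.92 without replicate 3 of the day 23 controls. Plagl1 had a count of 0 in 4 of 12 Wistar libraries and at most 45 count units. 1 fragment was assumed to equal 4 count units, although most low counts were not multiples of 4. Under this assumption 12 count units, or 3 fragments, is the limit that a count of 0 allows. Plagl1 was at or below that limit in 7 Wistar libraries. Its day 23 libraries lay between 0.03 and 0.14 FPKM and its day 63 libraries between 0 and 0.04 FPKM (adjusted p = 0.367 and 0.119). Dlk1 had 0 or 4 count units in each of the 21 libraries, and 0 in 10 of 12 Wistar and 5 of 9 Sprague Dawley libraries, so no difference was detectable at this depth.

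**Figure D3:**
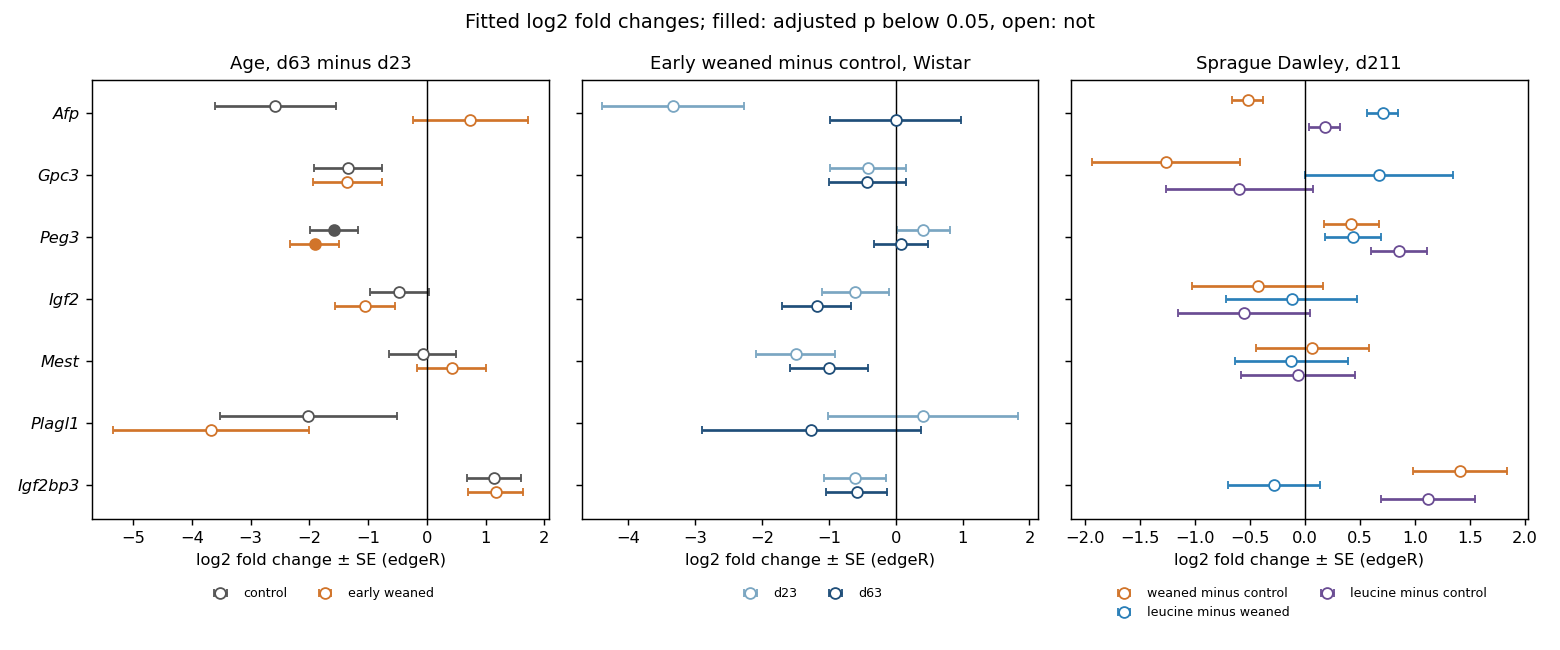
Fitted log2 fold change with its SE for each tested member, in the age comparisons, in early weaned against control Wistar rats, and in the Sprague Dawley comparisons; filled points passed an adjusted p of 0.05. Peg3 with age is filled in both groups (-1.58 and -1.91), and all other points are open.

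Other imprinted genes were read in the same comparisons from a list of 50, of which 41 were matched and 35 tested in Wistar. Their expression by parental allele was not measured, so whether each is imprinted in liver is not shown here. Of all genes 17.6% were called with age in controls and 27.0% in early weaned rats. Of the listed genes 1 rose and 6 fell in controls, and 8 rose and 7 fell in early weaned rats. In both groups 7 were called, in the same direction. Without replicate 3 of the day 23 controls 8 rose and 9 fell in controls, in a fit that called 37.9% of all genes against 17.6% with it, and the list counts below without that library are read against this share. Dcn, a matrix proteoglycan of fibroblasts, fell by 1.90 in controls and by 2.06 in early weaned rats, and the growth inhibitors Cdkn1c, a blocker of cyclin-dependent kinases, and Grb10, an adaptor that dampens insulin and IGF receptors, fell by 1.26 and 1.30 in controls and by 1.37 and 1.91 in early weaned rats. Slc38a4, an amino acid transporter of liver, fell from 458 ± 234 to 170 ± 24.7 FPKM (SD, n = 3) in controls. Cd81, a tetraspanin, rose by 1.01 and 1.04. The listed genes had both directions, with a median log2 change of -0.0012 in controls and -0.014 in early weaned rats over the 35. Usp29, the gene next to Peg3, was at 0.137 ± 0.0058 FPKM at day 23 and 0.343 ± 0.032 FPKM at day 63 (SD, n = 3) in early weaned rats and rose by 1.43 (adjusted p = 0.0242), opposite to Peg3. In controls Usp29 differed by 0.54, which was not called. H19, Meg3 and 7 further symbols of the list had no row and were not analysed here.

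**Figure D4:**
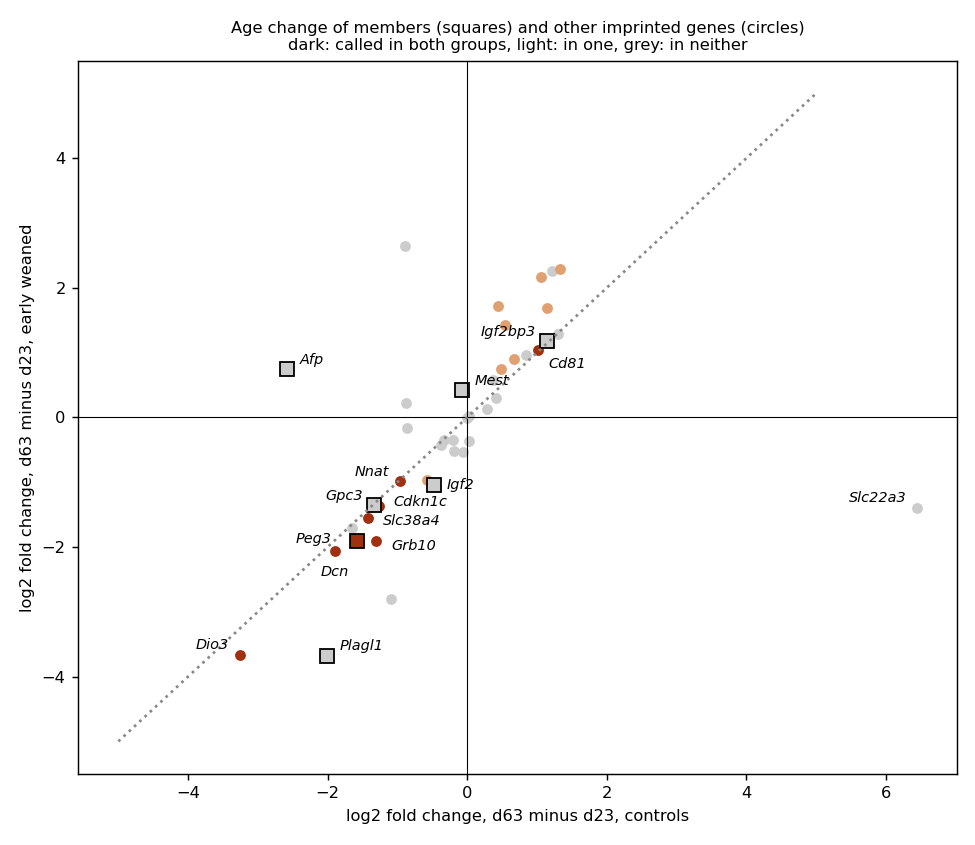
Log2 fold change from day 23 to day 63 in controls (x axis) and in early weaned rats (y axis) for the 7 tested members (squares) and 35 other imprinted genes (circles), with the dotted line marking equal change. Peg3 (-1.58, -1.91) lies with Dcn, Grb10, Cdkn1c, Slc38a4, Nnat and Dio3, called in both groups, and Afp (-2.58, 0.74) lies away from the line; Slc22a3, far to the right, was called in neither group.

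The next lists stand against 17.6% of all genes called with age in controls and 27.0% in early weaned rats, with all libraries. Among other fetal liver and oncofetal genes, 1 of 21 rose and 5 fell with age in controls, 1 rose and 5 fell in early weaned rats, and 5 were called in both. Leaving out replicate 3 of the day 23 controls gave 1 up and 6 down in controls. Aldoa, the aldolase of fetal liver and muscle, had log2 changes of -1.68 in controls and -2.09 in early weaned rats, Tfrc, the transferrin receptor, of -1.90 and -1.78, and Lpl, the lipoprotein lipase that neonatal liver makes, of -1.83 and -3.08. Cdh17, a cadherin, rose by 5.90 and 7.05, from means of 0.053 and 0.0067 FPKM. Among the regulators of Afp and of the change to adult liver, 3 of 27 rose and 3 fell in controls, and 7 rose and 4 fell in early weaned rats, with all 6 calls in controls among the 11 in early weaned rats. Without the same library 6 rose and 6 fell in controls. Zhx2, the repressor named above, was at 1.52, 2.06 and 1.53 FPKM in day 23 controls and at 3.26, 3.14 and 3.01 FPKM in day 63 controls, and rose by 0.89 (adjusted p = 0.0160) there and by 0.69 (adjusted p = 0.0258) in early weaned rats. Hnf4a, a central hepatocyte transcription factor, rose by 0.90 and 0.75. Nr2f1, a nuclear receptor, fell by 1.09 in controls and by 0.92 in early weaned rats, and Onecut2, a hepatic transcription factor, rose by 1.38 and 1.16. Cebpb, the stress-responsive C/EBP factor, fell by 1.75 (adjusted p = 0.0495) in controls and by 2.62 in early weaned rats. Cebpa, the C/EBP factor of mature hepatocytes, rose by 1.66 in early weaned rats, and Zhx3, a relative of Zhx2, fell by 1.69 there, neither being called in controls. In the albumin family, which shares its chromosomal cluster with Afp, 1 of 3 genes rose in controls (Gc, the vitamin D carrier, by 0.69) and 3 of 3 in early weaned rats (Gc by 0.80, Afm by 1.84 and Alb by 0.71), and 2 of 3 rose in controls without the same library.

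In the IGF system around Igf2, Igf2bp3 and Gpc3, 4 of 17 tested genes rose with age in controls and 5 fell, in early weaned rats 5 rose and 5 fell, and 8 were called in both, where 17.6% and 27.0% of all genes were called. In controls 5 of 18 rose and 8 fell once the library that stood apart was left out (37.9% of all genes). Igf1, the postnatal growth factor, rose from 42.5 ± 15.5 to 162 ± 36.9 FPKM (SD, n = 3) in controls and from 31.8 ± 4.67 to 142 ± 13.3 in early weaned rats. Igfals, which stabilises IGFs in blood, rose by 4.14 and 6.81, and Ghr, the growth hormone receptor, by 2.39 and 3.42. Igfbp1 had log2 changes of -5.86 in controls and -7.39 in early weaned rats, and Igfbp2, a further binding protein, of -3.87 and -6.76. Igf2r rose by 2.17 (adjusted p = 0.0197) in early weaned rats and was not called in controls, where replicate 3 at day 23 was at 7.14 FPKM. Of 11 glypicans and genes of glypican processing, 1 rose and 1 fell in controls and 3 rose and 1 fell in early weaned rats, while 4 rose and 1 fell in controls without that library. Ndst1, a heparan sulfate enzyme, rose by 1.28 and 1.40. Ext1, which elongates heparan sulfate chains, fell by 0.67 and 0.66, and in early weaned rats Notum, a secreted hydrolase, rose by 1.84 and Gpc4, a sister glypican, by 0.75. Of 16 Notch pathway genes 1 fell in controls, and 1 rose and 1 fell in early weaned rats (2 rose and 1 fell in controls without that library), with Notch4 down by 1.16 and 1.11 and Notch2, a receptor of hepatocyte and bile duct precursors, up by 1.10 in early weaned rats. Of 5 relatives of Peg3 and Plagl1, 0 were called in controls and 2 rose in early weaned rats, Usp29 and Zscan26 (by 0.40).

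Markers of other liver cells were read in the same comparisons, where 17.6% of all genes were called in controls and 27.0% in early weaned rats. Of 8 sinusoidal endothelial markers 0 rose and 2 fell with age in controls, and 0 rose and 6 fell in early weaned rats. Their sum lay between 90.5 and 114 FPKM in the 6 day 23 libraries and between 35.8 and 81.3 FPKM at day 63. Of 12 stellate cell and fibroblast markers, 3 fell in controls, and 2 rose and 3 fell in early weaned rats. Of 11 lymphocyte markers 3 rose in each group. Of 10 Kupffer cell and macrophage markers 1 fell in each group, of 9 cholangiocyte markers 1 fell in controls and 1 rose in early weaned rats, and 0 of 8 erythroid and 0 of 6 mesothelial markers were called. When day 23 control replicate 3 was left out, 0 endothelial markers rose and 2 fell, 2 stellate markers rose and 3 fell, and 5 lymphocyte markers rose in controls, against 37.9% of all genes called. Their part in the changes of Peg3, Dcn and the other genes was not tested.

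Early weaning in Wistar rats changed no member past the threshold. At day 23 0.013% of 15416 genes were called and 0 of 7 tested members. At day 63 0.0% were called, again with 0 members. At an unadjusted p under 0.05 there were 2 members at day 23 and 1 at day 63, against 6.20% and 6.05% of all genes, and DESeq2 called 0 members at either age (0.733% and 0.61% of all genes). The test of whether the effect of weaning differed between the ages called 0.00649% of genes and 0 members, with 1 member and 4.72% of genes at an unadjusted p under 0.05.

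At day 23 the largest fitted difference was that of Afp. The early weaned values of 0.59, 6.65 and 1.18 FPKM stood against 9.49, 4.12 and 70.5 FPKM in controls, so the groups overlapped through early weaned replicate 2. The log2 difference was -3.32 (SE 1.06, adjusted p = 0.666), and -1.29 (adjusted p = 0.739) without replicate 3 of the controls. Over all 15 other settings it lay between -5.03 and -1.29 and was called in 0. Mest was at 0.68, 1.27 and 0.52 FPKM after early weaning and at 1.58, 0.74 and 4.65 FPKM in controls, a difference of -1.49 (SE 0.59, adjusted p = 0.785) that was -0.51 without the same control library. Gpc3 was the member whose groups did not overlap at day 23 (0.89 to 1.21 against 1.23 to 1.64 FPKM), with a difference of -0.42 (SE 0.56, adjusted p = 0.992). The groups nearly met, and how many of all genes lacked overlap here was not counted, so this is not read as a result about Gpc3. Peg3 and Igf2bp3 overlapped, with differences of 0.41 and -0.61 (adjusted p = 0.973 and 0.947) that were 0.13 and -0.081 without replicate 3 of the controls. Lower after early weaning were also 10 of 11 cell cycle genes (median log2 difference -4.53), 8 of 8 erythroid and 5 of 6 mesothelial markers. Higher were 7 of 10 hepatocyte, 6 of 8 endothelial and 4 of 5 exocrine pancreas markers, and none of these genes was called. Control replicate 3 had the highest cell cycle sum. The part of these genes in the member differences was not tested.

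At day 63 Afp was level between the groups, with a log2 difference of -0.00046 (SE 0.98). Igf2, Igf2bp3 and Mest did not overlap between the groups and were lower after early weaning, with none past the threshold. How many of all genes lacked overlap in this comparison was not counted, so the separation is not read as a result about the members. Igf2 was at 0.05, 0.03 and 0.08 FPKM against 0.13, 0.13 and 0.15 FPKM in controls, a difference of -1.18 (SE 0.52, adjusted p = 0.794). Mest was at 0.96, 1.26 and 0.88 FPKM against 1.68, 2.29 and 2.67 FPKM, a difference of -1.002 (SE 0.58, adjusted p = 0.879). Igf2bp3 differed by -0.58 (SE 0.46, adjusted p = 0.952). The endothelial, macrophage and lymphocyte markers were lower in the same early weaned livers for 8 of 8, 10 of 10 and 10 of 11 genes, with 0 called. Also lower were 8 of 8 erythroid, 5 of 5 exocrine pancreas, 3 of 3 adipocyte and 9 of 11 cell cycle genes, with 0 called. Of 10 hepatocyte markers 7 were higher. The part of all these genes in the member differences was not tested.

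At day 211 in Sprague Dawley rats, Afp was tightly grouped. Controls had 8.46, 8.92 and 9.56 FPKM, early weaned rats 7.24, 6.23 and 8.32 FPKM, and early weaned rats given leucine 10.2, 12.1 and 9.50 FPKM. Each early weaned library lay below all controls and below all leucine libraries, whereas the leucine and control groups overlapped. How many of all genes lacked overlap at day 211 was not counted, so separation at this age is not read as a result about the members. In order of mean level the groups were early weaned, control and leucine, with no pair of them past the threshold in edgeR. In edgeR the difference of early weaned from control was -0.53 (SE 0.14, adjusted p = 0.105), that of leucine from early weaned was 0.70 (SE 0.14, adjusted p = 0.0654), and that of leucine from control was 0.18 (SE 0.14, adjusted p = 0.693). The contrasts with early weaned rats share the early weaned libraries, so their opposite signs are not independent. Of 10 hepatocyte markers 10 were lower in early weaned than in control rats and 9 were higher with leucine than without (median log2 differences of -0.43 and 0.31), and the 3 albumin family genes were all lower and all higher (-0.40 and 0.44), with 0 called. Alb is in both of these lists. Higher in early weaned than in control rats were 8 of 8 erythroid, 8 of 10 lymphocyte and 6 of 9 cholangiocyte markers and 10 of 12 cell cycle genes, with 0 called. Endothelial, macrophage and stellate markers went both ways there. With leucine 8 of 8 endothelial, 10 of 10 macrophage and 10 of 12 stellate markers were also higher than without. Lower with leucine were 7 of 10 lymphocyte markers and 8 of 12 cell cycle genes. Against controls 8 of 10 hepatocyte markers were lower with leucine (median -0.21). Higher there were 9 of 9 cholangiocyte, 9 of 10 macrophage, 10 of 12 stellate and 7 of 8 endothelial markers. The part of these markers in the Afp values was not tested. DESeq2 called both contrasts of Afp with early weaned rats (adjusted p = 0.0217 and 0.00084), and over 15 other settings the difference kept its sign, from -0.60 to -0.28 and from 0.49 to 0.78. The FPKM scale itself sat differently: the median gene differed by 0.17 between early weaned and control rats on log2(FPKM + 1) and by 0.02 in edgeR, and by -0.13 and -0.0022 between leucine and early weaned rats.

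Igf2bp3 was the member with the largest difference at this age. It was at 1.11, 1.38 and 0.85 FPKM in controls, at 3.15, 3.81 and 3.33 FPKM in early weaned rats and at 1.77, 4.55 and 1.33 FPKM with leucine. All early weaned libraries lay above all controls, and the leucine libraries were spread over both ranges. The log2 difference of early weaned from control was 1.41 (SE 0.43, adjusted p = 0.137), and DESeq2 called it (adjusted p = 0.0235). With leucine it differed from controls by 1.12 (SE 0.43, adjusted p = 0.426) and from early weaned rats by -0.29 (SE 0.42, adjusted p = 0.872). In the younger Wistar rats the early weaned minus control values were -0.61 and -0.58, not called, and the difference between the strains was not tested.

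Peg3 at day 211 was at 2.48, 2.06 and 1.34 FPKM in controls, at 2.72, 3.08 and 3.29 FPKM in early weaned rats and at 3.26, 4.94 and 2.87 FPKM with leucine. Both early weaned groups lay above all controls. The differences from controls were 0.42 (SE 0.25, adjusted p = 0.448) and 0.85 (SE 0.25, adjusted p = 0.369), neither of which passed in any of 15 other settings. Gpc3 had a control library at 1.80 FPKM while the other 8 libraries lay between 0.32 and 0.99 FPKM, and its difference of -1.27 (SE 0.68, adjusted p = 0.384) between early weaned and control rats came with overlapping groups and was -0.197 (adjusted p = 0.899) without that control library. Mest (0.43 to 1.43 FPKM) and Igf2 (0.066 to 0.22 FPKM) overlapped in all 3 comparisons. Plagl1 had at most 11 count units in the 9 libraries, within the limit assumed for a count of 0, and was not tested.

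Across the Sprague Dawley comparisons 0 of 6 tested members were called. Early weaned against control livers had 0.719% of 15019 genes called, leucine against early weaned livers 0.36% and leucine against control livers 0.0133%. At an unadjusted p under 0.05 there were 2, 1 and 2 members, against 17.2%, 13.1% and 10.8% of all genes, and DESeq2 called 2, 1 and 0, where it called 7.64%, 5.27% and 1.39% of all genes. The median log2 difference of the members was -0.19, 0.16 and 0.06, against 0.02, -0.0022 and 0.01 over all genes. None of the pathway lists had a called gene in these comparisons or in the Wistar weaning comparisons. Zhx2 was at 1.65, 2.22 and 1.40 FPKM in controls and at 2.97, 2.91 and 2.96 FPKM in early weaned rats at day 211, without overlap and not called. With leucine Zhx2 was at 2.56, 2.96 and 2.22 FPKM, above all controls and overlapping the early weaned group.

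The genes most like each member by library are given as a description, over genes at a mean of 1 FPKM or more. Over the 12 Wistar libraries Peg3 was most like Fetub (Pearson r = 0.980 on log2(FPKM + 1)), Oat (0.976) and Flad1 (0.974), among 11002 genes. Igf2bp3 was most like Kank2 (0.935), Ccnd1 (0.934) and SNORD14 (0.934), and Mest like Marcksl1 (0.930), Acot2 (0.930) and Cgref1 (0.893). Without replicate 3 of the day 23 controls these values stayed at 0.932 or higher for Peg3 and Igf2bp3 and were 0.876, 0.872 and 0.776 for Mest. Afp was most like Cdkn3 (0.852), Nubpl (0.848) and AABR07001512 (0.845), and without that library these values were 0.30, 0.70 and 0.76. The libraries share age groups and depth, so genes that follow age or that library score high. Over the 9 Sprague Dawley libraries Afp was most like Arg1 (0.931), Gpi (0.924) and Ddo (0.919), Igf2bp3 like Suox (0.959), Stt3a (0.955) and Ddhd1 (0.949), and Peg3 like AABR07040864 (0.962), Kalrn (0.952) and Fam114a1 (0.952).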

How the data were processed

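Liver RNA was extracted and made into libraries with a template-switching mRNA kit, per the labels' protocols. The deposited tables, 1 for Wistar and 1 for Sprague Dawley rats, hold for each library an estimated count per gene and an FPKM value, both made by the authors. Neither the aligner, the counter nor its strand setting is given in the sources used here, so sense and antisense reads, as at the Igf2, Peg3 and Mest loci, cannot be told apart. GRCm38 and mm10, both of mouse, stand in the submitters' processing notes, while the tables hold rat Ensembl identifiers, and no rat build is named. Of low counts 29.8% and 33.9% were multiples of 4, so most were not. Taking 1 fragment as 4 count units is therefore an assumption. Sprague Dawley FPKM deposited as 0.0001 at a count of 0 was read as 0.

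Estimated counts, whole as deposited, were fitted per table with edgeR 4.0.16 (TMM, filterByExpr at a minimum count of 10, a mean per group, quasi-likelihood F test, two-sided, Benjamini-Hochberg over all genes tested, threshold 0.05). SE is the log2 fold change divided by the square root of F. Alternatives were DESeq2 1.42.0, DESeq2 size factors in edgeR, no filter, counts divided by 4, a replicate block, only the groups compared, each library left out, and limma 3.58.1 on log2(FPKM + 1) or log2(FPKM + 0.1) for genes at a mean of 0.5 FPKM. The fitting script was tested on simulated data. Library totals limit precision as given in the text, and no molecular identifiers are described, so counts cover counting error only. Nothing in the labels says that replicates came from separate animals: every p-value then reflects only how far these samples spread, which may be technical. At most 0.47% of higher counts were identical between libraries.

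The members and lists were chosen with earlier results of these data known. From each list the text names the up to 4 called genes of smallest p per comparison. Slc38a4, Nnat, Dio3, Slc22a3, Cdh17, Igfbp2, Igf2r, Igf2bp1 and Mki67, and the values of Zhx2 at day 211, were picked after their values were seen.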

Additional observations from a re-analysis of the deposited data

How the results depend on the processing

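Over 798 refits of single members under other settings, 728 kept direction and side of the threshold, 53 reversed, 12 passed newly and 5 no longer passed; the reversals were of uncalled values, and their cause was not tested. Counts of called genes moved more than the members did. In early weaned against control rats at day 23 (2 called) there were 5 with no filter, 113 with DESeq2, 6 with limma on log2(FPKM + 1), 12 with limma unfiltered and 1 with only the groups compared. At day 63 (0 called) DESeq2 gave 94, limma on log2(FPKM + 0.1) 2, limma unfiltered 1 and only the groups compared 2. With age in controls (2710) DESeq2 gave 4158 and only the groups compared 281. With age in early weaned rats (2085 up, 2076 down) limma gave 1657 up and 2765 down. The interaction (1) had 46 with DESeq2 and 3 with limma unfiltered. At day 211, early weaned against control (108; 63 up, 45 down) had 188 with counts divided by 4, 1147 with DESeq2, 266 (218 up, 48 down) and 241 with limma at pseudocounts 1 and 0.1, 6 unfiltered and 31 with only the groups compared. Leucine against early weaned (54; 27 up, 27 down) had 113 with no filter, 154 with counts divided by 4, 791 with DESeq2, 138 (44 up, 94 down) with limma, 15 unfiltered and 32 with only the groups compared. Leucine against control (2) had 5 with no filter, 209 with DESeq2, 4 with limma, 4 unfiltered and 4 with only the groups compared. Same-numbered libraries did not deviate together (1 of 18 Wistar and 1 of 9 Sprague Dawley pairs correlated over 0.1), so no pairing by number was detected. With 3 libraries in a group, the check cannot show that there is none. With a replicate block the counts were 1 at day 23, 0 at day 63, 2156 and 3774 with age in controls and early weaned rats, 0 for the interaction, and 49, 58 and 5 in the day 211 comparisons, and Igf2bp3 had an interaction of -0.17.

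Reversed member values were Afp at day 63 (0.0046 with DESeq2 size factors, 0.0048 with DESeq2), Mest with age in controls (0.12 with limma, filtered or not, and 0.27 at pseudocount 0.1), Mest for leucine against control (0.010 with limma, filtered or not, and 0.075 at pseudocount 0.1), the interaction of Gpc3 (0.032 with counts divided by 4, 0.015 with limma, filtered or not) and that of Igf2bp3 (-0.31 with limma, filtered or not, and -0.33 at pseudocount 0.1).

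Leaving out each library in turn gave 1 to 6 called genes at day 23, 0 to 3 at day 63, 646 to 6001 with age in controls (lowest without day 23 control replicate 1, highest without replicate 3), 1923 to 2997 with age in early weaned rats (lowest without day 63 replicate 2), 0 to 4 for the interaction, 2 to 534 for early weaned against control and 1 to 539 for leucine against early weaned at day 211 (lowest without early weaned replicate 1, highest without replicate 2), and 2 to 6 for leucine against control. Member values that changed sign had ranges, at day 23, of -0.26 to 0.79 for Plagl1; at day 63, of -0.11 to 0.088 for Afp, -0.16 to 0.64 for Peg3 and -5.21 to 3.92 for Plagl1; with age in controls, of -0.50 to 0.92 for Mest; for the interaction, of -1.35 to 0.41 for Gpc3, -0.50 to 0.41 for Igf2bp3, -0.57 to 0.23 for Peg3, -5.61 to 3.52 for Plagl1 and -0.49 to 0.97 for Mest; for early weaned against control at day 211, of -0.70 to 0.27 for Igf2 and -0.27 to 0.45 for Mest; for leucine against early weaned, of -0.42 to 0.046 for Igf2, -0.99 to 0.017 for Igf2bp3 and -0.44 to 0.062 for Mest; and for leucine against control, of -1.26 to 0.47 for Gpc3, -0.83 to 0.14 for Igf2 and -0.40 to 0.32 for Mest. Where an arm kept 2 libraries all groups still shared the spread.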
